A study of Homo sapiens with 18 samples.

Results

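The RNA of 10 genes of the replication fork was followed in MSTO-211H cells: PCNA, RFC1, RFC2, RFC3, RFC4, RFC5, FEN1, LIG1, POLD1 and POLE2. A probe set was taken as a member when its only gene symbol in the platform annotation was one of these names, which gave 17 of the 22283 probe sets on the array, and 10 of the 11963 genes with such a probe set. MSTO-211H is an established human mesothelioma line. The study profiled it on 18 HGU133A arrays, to compare a combined drug treatment with its single drugs at a time without apoptosis (8 h) and a time with it (24 h). Cells received 760 µM piroxicam together with 4.5 µg/mL cisplatin (P/C), piroxicam alone (P), cisplatin alone (C), or no drug (untreated). Piroxicam is an anti-inflammatory inhibitor of cyclooxygenases, and cisplatin forms adducts with DNA. At 8 h each of the 4 treatments had 2 arrays. At 24 h there were 2 P/C arrays, 3 P arrays, 3 C arrays and 2 untreated arrays. The replicates are described as biological, all from this single line.

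PCNA is a ring that slides along DNA and holds polymerases and other enzymes on their template. The ring is opened and placed on DNA by replication factor C, the clamp loader, in which the large subunit RFC1 joins the small subunits RFC2, RFC3, RFC4 and RFC5. On the lagging strand DNA polymerase delta, whose catalytic subunit is POLD1, pushes up the start of the fragment ahead as a flap. FEN1 cuts that flap and LIG1 seals the nick, both while bound to PCNA. POLE2 is an accessory subunit of DNA polymerase epsilon, which copies the leading strand. Many genes of DNA synthesis are transcribed mostly around S phase, and E2F factors are known to drive several of them.

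Promoters are shown for the members whose windows hold the E2F letters and for RFC5 and FEN1, which fell most evenly and by most with P at 24 h, so that the letters near their starts can be compared. RefSeq sequence of build GRCh38.p14 was available for all 10 genes, with 12 annotated starts, as windows from 250 bases before to 50 bases after a start. The upstream 250 bases are printed 5′ to 3′ along the gene's strand, with capitals for matches, on either strand, to the E2F letters (TTTCCCGC, TTTCGCGC, TTTGCCGC or TTTGGCGC) or to CCAAT. For POLE2, whose match lies over the start itself, only the 30 bases around the match are given.
PCNA, chr20:5126623-5126872, minus strand: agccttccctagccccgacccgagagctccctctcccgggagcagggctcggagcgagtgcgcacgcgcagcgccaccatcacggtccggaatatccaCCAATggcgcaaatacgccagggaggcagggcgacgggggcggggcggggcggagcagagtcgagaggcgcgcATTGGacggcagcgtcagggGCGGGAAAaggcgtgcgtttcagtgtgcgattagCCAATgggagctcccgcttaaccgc
RFC3, chr13:33817899-33818148, plus strand: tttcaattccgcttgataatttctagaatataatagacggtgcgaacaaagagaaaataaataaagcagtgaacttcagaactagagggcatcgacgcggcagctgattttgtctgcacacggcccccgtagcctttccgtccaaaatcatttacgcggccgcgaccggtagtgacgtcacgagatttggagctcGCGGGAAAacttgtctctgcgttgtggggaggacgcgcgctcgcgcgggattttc
LIG1, chr19:48170345-48170594, minus strand: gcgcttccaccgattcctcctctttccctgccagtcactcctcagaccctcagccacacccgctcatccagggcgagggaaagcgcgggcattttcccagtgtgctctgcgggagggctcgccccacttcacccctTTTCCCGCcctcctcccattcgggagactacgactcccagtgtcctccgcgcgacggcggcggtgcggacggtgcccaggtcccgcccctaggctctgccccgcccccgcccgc
RFC5, chr12:118016453-118016702, plus strand: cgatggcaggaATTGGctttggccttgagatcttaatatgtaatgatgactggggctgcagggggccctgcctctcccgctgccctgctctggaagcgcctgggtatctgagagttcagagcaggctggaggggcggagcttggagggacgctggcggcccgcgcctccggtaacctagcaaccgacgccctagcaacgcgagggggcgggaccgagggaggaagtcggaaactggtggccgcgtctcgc
FEN1, chr11:61792661-61792910, plus strand: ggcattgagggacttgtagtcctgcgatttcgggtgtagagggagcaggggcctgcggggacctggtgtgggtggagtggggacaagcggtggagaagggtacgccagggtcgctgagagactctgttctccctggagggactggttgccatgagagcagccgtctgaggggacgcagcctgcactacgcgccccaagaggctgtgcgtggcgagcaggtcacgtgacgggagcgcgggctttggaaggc
POLE2, chr14:49688201-49688230, minus strand: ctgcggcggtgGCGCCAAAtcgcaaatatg
The E2F letters were found in 4 of the 12 member windows, at positions −59 (PCNA), −55 (RFC3), −114 (LIG1) and −5 (POLE2) from the start, and in 3.31% of all 35116 RefSeq windows of the same length. CCAAT was found in 4 of the 12 windows, those of RFC1, RFC5 and both starts of PCNA, and in 34.6% of all windows. The letters TTTGAA, the core of the cell cycle homology region, were in none of the 12 windows and in 15.2% of all. The windows of RFC2, RFC4, FEN1 and POLD1 held none of these letters. A match describes the sequence only, and binding of a factor was not measured.

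The values are GCRMA signals on the log2 scale, as deposited. A probe set was tested when its interquartile range over the arrays was at least 0.25 and its signal was at least 100 (6.64 on the log2 scale) in at least 25% of the arrays. The filter, which reads the same arrays as the tests, kept 3057 probe sets, among them 8 of the 17 member probe sets, which stand for 6 genes: PCNA, RFC2, RFC3, RFC4, RFC5 and FEN1. For RFC1, LIG1, POLD1 and POLE2 no probe set passed, and their values come from the same fit made on all 22215 probe sets other than controls. The limma fit held a mean for each of the 8 groups. A probe set was called where the Benjamini-Hochberg adjusted p did not exceed 0.05 and the log2 fold change was 1 or more in either direction. Where a gene has several probe sets, the one with the highest mean signal stands for it in counts. Signals of different probe sets are not compared with each other. As each array holds the RNA of a whole culture, fewer cells with a transcript and less of it in each cell cannot be told apart.

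The keratins KRT8 and KRT18 and the intermediate filament VIM lay above a signal of 100 on every array, with log2 signals of 9.03 to 10.23, 11.07 to 12.01 and 11.74 to 12.09. The other 9 mesothelial and keratin markers, with mesothelin (MSLN), calretinin (CALB2) and WT1 among them, lay below it on every array, as did 6 leukocyte and erythroid and 6 stromal and endothelial markers. At 24 h some arrays stood apart from their groups. The array C 24 h replicate 1 had a median over 8 tested p53 target genes of 0.22 above the untreated mean, against 1.47 and 1.75 in the other C arrays, and its CDKN1A log2 signal was 8.66, against 10.71 and 11.46. For the 15 probe sets called with P at 8 h, signed by that change, the median was 0.68 above the untreated mean on P/C 24 h replicate 1 and 1.32 on P/C 24 h replicate 3, against 1.00 to 1.27 on the P arrays, 0.57 to 0.66 on the C arrays and −0.19 to 0.19 on the untreated arrays. Over all tested probe sets, with the untreated 24 h mean subtracted from each array, P/C 24 h replicate 1 was closest to a C array (r = 0.864) and P/C 24 h replicate 3 to a P array (r = 0.878), while C 24 h replicate 1 had at most 0.383 with any of these arrays. Whether these arrays carry the right labels could not be settled from the files. The labels were kept, so the P/C and C values at 24 h hold only as far as the labels do. Calls that rest on these arrays are given with and without them.

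At 24 h most tested members were lower with P, and fewer were with P/C, where the values of PCNA, RFC1, LIG1 and POLD1 were above 0. Of the 6 tested genes, 2 were lower with P/C (RFC5 and FEN1), 5 were lower with P (PCNA, RFC2, RFC3, RFC5 and FEN1) and none was called with C. Among all tested probe sets 4.22% were called lower with P/C, 11.4% with P and 0% with C. Without C 24 h replicate 1 the calls with C were 81 lower and 42 higher of the 3057 tested probe sets (4.02%). With C, 421 tested probe sets had an unadjusted p under 0.05, and 1 of them, RFC4, was a member gene. The median log2 fold change of the 6 genes was −1.14 with P/C, −2.06 with P and −0.29 with C, beside −0.12, −0.22 and −0.10 over all tested probe sets. Every treated array lay below both untreated arrays for 34% of the tested probe sets with P/C and for 42.8% with P, so such a separation was common on these arrays. Counting all 17 member probe sets in the fit without the filter, 2 were lower with P/C, 10 with P and none with C, beside 0.626%, 2.67% and 0.0045% of all probe sets called lower there. The 3 comparisons with untreated cells at 24 h share their 2 untreated arrays. After quantile normalization of the arrays the median with P was −0.06 over all tested probe sets, and their calls with P were 154 higher and 238 lower, against 96 higher and 349 lower on the deposited values. The median of the 6 member genes with P was then −1.88, and 4 of them were called.

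**Figure D1:**
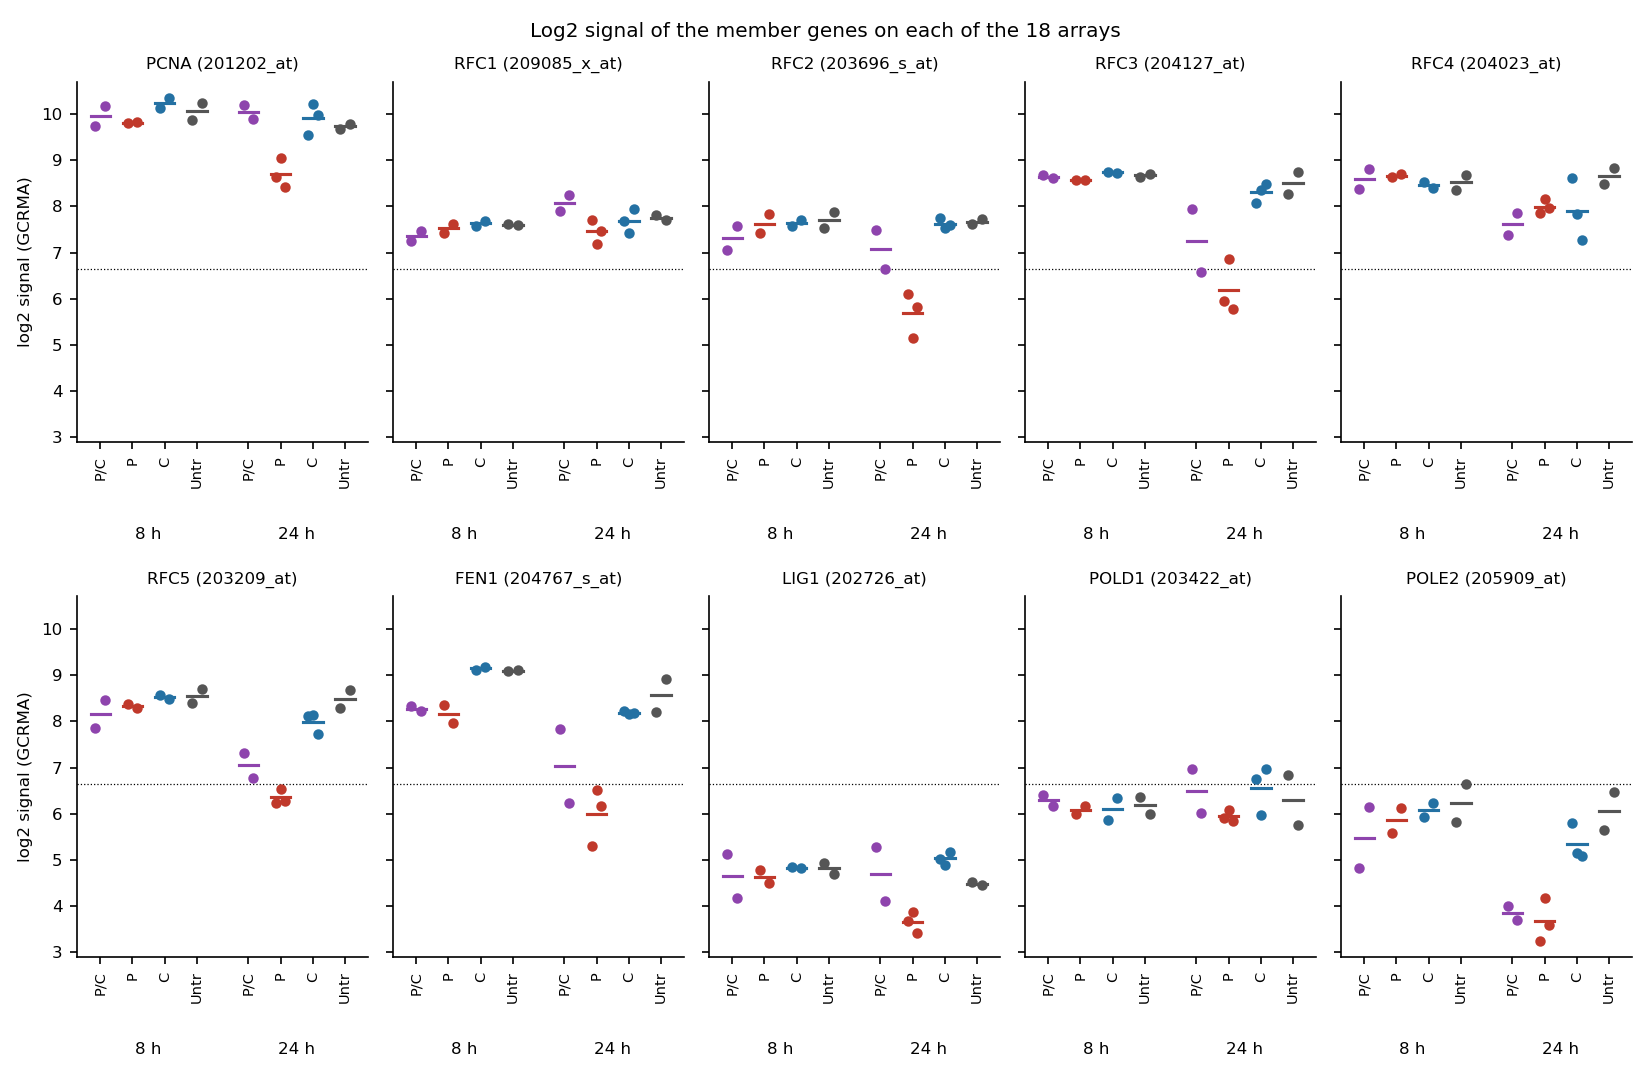
Log2 signal of the probe set standing for each of the 10 genes on every array, with 1 point for an array and a bar at the mean of its group. P/C, P, C and untreated (Untr) cells are given at 8 h and at 24 h, and the dotted line marks a signal of 100. At 24 h the P arrays of RFC5 lie between 6.24 and 6.54, below every other array of that gene.

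**Figure D2:**
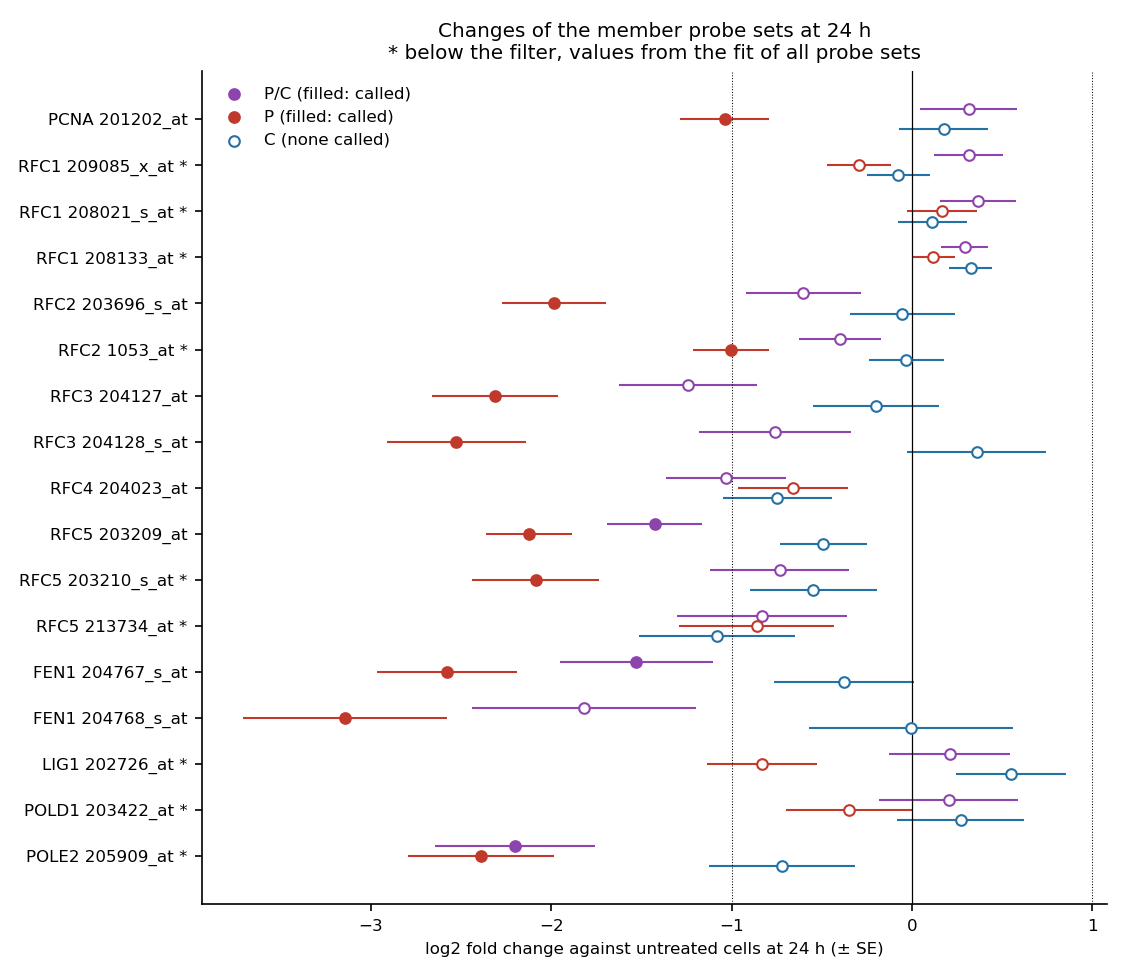
Log2 fold change against untreated cells at 24 h for each of the 17 member probe sets, with bars of 1 standard error. Filled points were called and open points were not, dotted lines mark a log2 fold change of 1 in either direction, and an asterisk marks probe sets that did not pass the filter.

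The clamp itself fell with P alone. PCNA (201202_at) had log2 signals of 10.21 and 9.90 with P/C, 8.63, 9.05 and 8.42 with P, 9.54, 10.22 and 9.98 with C, and 9.69 and 9.80 in untreated cells. All 3 P arrays lay below every other array of the 24 h series, while both P/C arrays lay above both untreated arrays. Of the tested probe sets, 21.2% had both P/C arrays above both untreated arrays in this way. With P the gene was 2.06-fold lower than in untreated cells (log2 fold change −1.04, SE 0.25, adjusted p = 0.00651), just past the fold limit. After quantile normalization it was −0.90 (adjusted p = 0.018), and without P 24 h replicate 3 it was also −0.90 (adjusted p = 0.0303), short of that limit. Without untreated 24 h replicate 2 it was −0.98 (adjusted p = 0.0684). With P/C the log2 fold change was 0.31 (SE 0.27, adjusted p = 0.455, 95% interval −0.26 to 0.89), and with C it was 0.18 (SE 0.25, adjusted p = 0.753).
Set directly against P, PCNA was 2.56-fold higher with P/C (log2 fold change 1.35, SE 0.25, adjusted p = 0.0453), the only member gene called in that comparison, in which 0.164% of the tested probe sets were called higher. This call stands close to the threshold. Of the 18 fits that left out 1 array, 13 lost it, with log2 fold changes of 1.20 to 1.53 and a largest adjusted p of 0.39, reached without P/C 24 h replicate 1. Against C, PCNA was 2.32-fold lower with P (−1.21, SE 0.22, adjusted p = 0.002), and that call held in all 18 such fits. Only those without a P or C array of 24 h can change this fold change.

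RFC1, the large subunit of the loader, was called in no comparison. Its probe set with the highest mean, 209085_x_at, had log2 signals of 7.89 and 8.24 with P/C, 7.71, 7.19 and 7.47 with P, 7.68, 7.42 and 7.94 with C, and 7.81 and 7.70 in untreated cells. Its interquartile range of 0.24 kept it out of the tested set. The log2 fold change was 0.31 with P/C (SE 0.19, adjusted p = 0.529, 95% interval −0.10 to 0.73) and −0.29 with P (SE 0.18, adjusted p = 0.429, 95% interval −0.67 to 0.08). At 24 h both P/C arrays lay above both untreated arrays, while at 8 h both P/C arrays (7.24 and 7.47) lay below both untreated arrays (7.62 and 7.59). Of all probe sets, 20.9% had the first separation and 17.1% the second. The other probe sets of RFC1 were not called either, 208021_s_at with signals of 6.27 to 6.97 over the 18 arrays and 208133_at with 1.80 to 2.32, below the array medians of 2.72 to 2.83. The 3 probe sets had correlations with each other of 0.02 to 0.19 over the arrays.

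Of the small loader subunits, RFC2, RFC3 and RFC5 fell with P, while RFC4 was not called. RFC2 (203696_s_at), an ATP-binding subunit, had log2 signals of 7.49 and 6.65 with P/C, 6.10, 5.15 and 5.81 with P, 7.74, 7.53 and 7.59 with C, and 7.62 and 7.73 in untreated cells. The P arrays were below all others, and the P/C arrays lay between them and the untreated arrays. With P it was 3.96-fold lower than in untreated cells (−1.99, SE 0.29, adjusted p = 0.000515), and with P/C the log2 fold change was −0.60 (SE 0.32, adjusted p = 0.215). It was −1.03 (adjusted p = 0.0644) without P/C 24 h replicate 1 and −0.18 (adjusted p = 0.785) without P/C 24 h replicate 3. The second probe set, 1053_at, which did not pass the filter, moved the same way with a smaller size, at −1.0 with P (SE 0.21, adjusted p = 0.013), on the fold limit itself.

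RFC3 (204127_at) had log2 signals of 7.95 and 6.57 with P/C, 5.94, 6.87 and 5.77 with P, 8.08, 8.35 and 8.48 with C, and 8.26 and 8.74 in untreated cells. Its P/C arrays were 1.38 apart on the log2 scale, with replicate 3 among the P arrays and replicate 1 next to the lowest C array. With P the gene was 4.96-fold lower than in untreated cells (−2.31, SE 0.35, adjusted p = 0.000622), and its second probe set, 204128_s_at, gave −2.53 (SE 0.38, adjusted p = 0.000622). With P/C the values were −1.24 (SE 0.38, adjusted p = 0.0506) and −0.76 (SE 0.42, adjusted p = 0.237), neither called. Without P/C 24 h replicate 1 the first became −1.93 (adjusted p = 0.00402), and without P/C 24 h replicate 3 it became −0.56 (adjusted p = 0.379).

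RFC5 (203209_at), another small subunit, had the P arrays closest to each other of the 5 genes that fell. It had log2 signals of 7.32 and 6.78 with P/C, 6.24, 6.54 and 6.28 with P, 8.11, 8.13 and 7.73 with C, and 8.28 and 8.68 in untreated cells. On this probe set the 4 groups followed each other without overlap, P lowest, then P/C, C and untreated cells. Every C array lay below both untreated arrays for 21.9% of the tested probe sets. With P RFC5 was 4.36-fold lower than in untreated cells (−2.13, SE 0.24, adjusted p = 7.82e-05). With P/C it was 2.69-fold lower, a call that was lost without untreated 24 h replicate 2 (−1.23, adjusted p = 0.13) or without P/C 24 h replicate 3 (−1.16, adjusted p = 0.0628), while it was −1.70 (adjusted p = 0.00267) without P/C 24 h replicate 1. With C the log2 fold change was −0.49 (SE 0.24, adjusted p = 0.373, 95% interval −1.0 to 0.02). Of its other probe sets, which did not pass the filter, 203210_s_at gave −2.09 with P (SE 0.35, adjusted p = 0.00521) and had a correlation of 0.90 with 203209_at over the arrays. The third, 213734_at, had a correlation of 0.48 with it and gave −0.86 with P (SE 0.43, adjusted p = 0.32). On 213734_at the order differed, with the C mean at 24 h the lowest of the 8 groups. It gave −1.08 with C (SE 0.43, adjusted p = 0.531) and 0.22 for P against C (SE 0.39, adjusted p = 0.865). With P/C, 203210_s_at gave −0.73 (SE 0.39, adjusted p = 0.425) and 213734_at gave −0.83 (SE 0.47, adjusted p = 0.48), neither called.

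RFC4 (204023_at), another ATP-binding subunit, had a different pattern. Its log2 signals were 7.38 and 7.87 with P/C, 7.87, 8.16 and 7.97 with P, 8.62, 7.84 and 7.28 with C, and 8.48 and 8.83 in untreated cells. Its lowest array was a C array and the P/C mean was the lowest of the 8 groups. The log2 fold change was −1.03 (SE 0.33, adjusted p = 0.057) with P/C, −0.66 with P (SE 0.30, adjusted p = 0.114) and −0.75 with C (SE 0.30, adjusted p = 0.31), none of them called. On C 24 h replicate 1 the signal was above both other C arrays, and without that array RFC4 was called lower with C (−1.10, adjusted p = 0.0202) and with P/C (−1.03, adjusted p = 0.0187). In that fit 81 of the 3057 tested probe sets were called lower with C and 165 with P/C. Against C the log2 fold change with P was 0.09 (SE 0.27, 95% interval −0.49 to 0.66).

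FEN1, the flap endonuclease, had the lowest fold change of the tested members with P. Its probe set 204767_s_at had log2 signals of 7.85 and 6.24 with P/C, 5.30, 6.51 and 6.17 with P, 8.24, 8.17 and 8.17 with C, and 8.21 and 8.93 in untreated cells. The P/C arrays were 1.61 apart, replicate 3 within the range of the P arrays and replicate 1 below the C arrays. With P it was 5.97-fold lower than in untreated cells (−2.58, SE 0.39, adjusted p = 0.000622). With P/C it was 2.88-fold lower (−1.53, SE 0.43, adjusted p = 0.0361), and this value was −2.33 (adjusted p = 0.00212) without P/C 24 h replicate 1, −0.73 (adjusted p = 0.284) without P/C 24 h replicate 3 and −1.17 (adjusted p = 0.294) without untreated 24 h replicate 2. The call with P/C was also lost after quantile normalization (−1.49, adjusted p = 0.0525) and in the fit without the filter (adjusted p = 0.0956). The second probe set, 204768_s_at, had log2 signals of 6.76 and 3.73 with P/C, 3.94, 4.36 and 3.48 with P, 7.41, 6.94 and 6.84 with C, and 7.01 and 7.13 in untreated cells. With P/C it gave −1.82 (SE 0.62, adjusted p = 0.0681) and was not called. Both probe sets had a correlation of 0.95 over the arrays and put P/C replicate 3 with the P arrays.

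LIG1, the ligase that joins the cut fragments, had a dim probe set (202726_at) that stayed under a signal of 100 on all arrays. It had log2 signals of 5.28 and 4.10 with P/C, 3.68, 3.86 and 3.40 with P, 5.03, 4.89 and 5.17 with C, and 4.51 and 4.45 in untreated cells. The 3 P arrays were the lowest and the 3 C arrays lay above the untreated arrays. Of all probe sets, 17.3% had every P array below both untreated arrays and 11.2% every C array above them. In the fit of all probe sets the log2 fold change of LIG1 was 0.21 (SE 0.33, adjusted p = 0.885) with P/C, −0.83 with P (SE 0.30, adjusted p = 0.144) and 0.55 with C (SE 0.30, adjusted p = 0.704), none of them called. The P/C value was −0.38 without P/C 24 h replicate 1 and 0.80 when replicate 3 was left out instead. Set against C, LIG1 was 2.60-fold lower with P (−1.38, SE 0.27, adjusted p = 0.0117), which missed the threshold without P 24 h replicate 3 (adjusted p = 0.0508).

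The polymerase subunits differed from each other. POLD1 (203422_at) had log2 signals of 6.98 and 6.01 with P/C, 5.91, 6.08 and 5.84 with P, 6.75, 5.97 and 6.97 with C, and 6.84 and 5.75 in untreated cells, so that all 4 groups overlapped. Its log2 fold change was 0.20 with P/C (SE 0.38, 95% interval −0.62 to 1.03) and −0.35 with P (SE 0.35, 95% interval −1.11 to 0.40), and no comparison called it. POLE2 (205909_at), which reached a signal of 100 on 1 array, had log2 signals of 4.01 and 3.70 with P/C, 3.25, 4.17 and 3.59 with P, 5.79, 5.15 and 5.07 with C, and 5.66 and 6.46 in untreated cells. The P/C and P arrays overlapped, and all 5 lay below every C and untreated array. Of all probe sets, 20.5% had every P/C array below both untreated arrays and 17.3% every P array. In the fit of all probe sets POLE2 was 4.61-fold lower with P/C (−2.20, SE 0.44, adjusted p = 0.0317) and 5.24-fold lower with P (−2.39, SE 0.41, adjusted p = 0.00531) than in untreated cells. The call with P/C was lost without untreated 24 h replicate 1 (adjusted p = 0.053), without untreated 24 h replicate 2 (adjusted p = 0.314) and without P/C 24 h replicate 3 (adjusted p = 0.136), and the call with P without untreated 24 h replicate 2 (adjusted p = 0.0873). P/C against P gave 0.19 (SE 0.41, 95% interval −0.69 to 1.06).

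The counts of members in comparisons of P/C with its single drugs depended on which P/C array was kept. The median of the 6 tested genes, each set against its untreated mean, was −0.64 on P/C 24 h replicate 1 and −1.36 on replicate 3, against −1.91, −1.79 and −2.03 on the P arrays, −0.27, −0.25 and −0.24 on the C arrays and −0.18 and 0.18 on the untreated arrays. Replicate 1 lay above replicate 3 by 0.85 for RFC2, 1.38 for RFC3, 0.54 for RFC5 and 1.61 for FEN1 on the log2 scale, and by 0.31 for PCNA, while it lay below replicate 3 for RFC4 (−0.49). CDKN1A, whose protein p21 binds PCNA, had log2 signals of 11.30 and 10.76 on these arrays, so both were at the level of the higher C arrays.
P/C against P called PCNA alone. RFC2 came next (log2 fold change 1.38, SE 0.29, adjusted p = 0.0538), followed by RFC3 (1.07, SE 0.35, adjusted p = 0.114), FEN1 (1.05, SE 0.39, adjusted p = 0.148) and RFC5 (0.70, SE 0.24, adjusted p = 0.124). Without P/C 24 h replicate 3, PCNA, RFC2, RFC3 and FEN1 were called higher with P/C than with P, at 1.51 (adjusted p = 0.00688), 1.80 (adjusted p = 0.00377), 1.76 (adjusted p = 0.00553) and 1.85 (adjusted p = 0.00616). In that fit 205 of the 3057 tested probe sets were called higher and 105 lower (10.1% in all). Without P/C 24 h replicate 1 none was, and FEN1 then stood at 0.25 (SE 0.37, adjusted p = 0.912) and PCNA at 1.20 (SE 0.31, adjusted p = 0.39). P/C against C called no member, while 0.0981% of the tested probe sets were called lower. Among the tested genes FEN1 (−1.15, SE 0.39, adjusted p = 0.19) and RFC3 (−1.04, SE 0.35, adjusted p = 0.19) had the lowest values, and POLE2 gave −1.48 (SE 0.41, adjusted p = 0.285) in the fit of all probe sets. Without P/C 24 h replicate 1, FEN1 (−1.96, adjusted p = 0.00768), RFC3 (−1.73, adjusted p = 0.00811) and RFC5 (−1.21, adjusted p = 0.0199) were called lower with P/C than with C, beside 124 of the tested probe sets called lower and 69 higher (6.31% in all). The part that differences between these 2 P/C arrays play in the results was not tested beyond these fits.

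**Figure D3:**
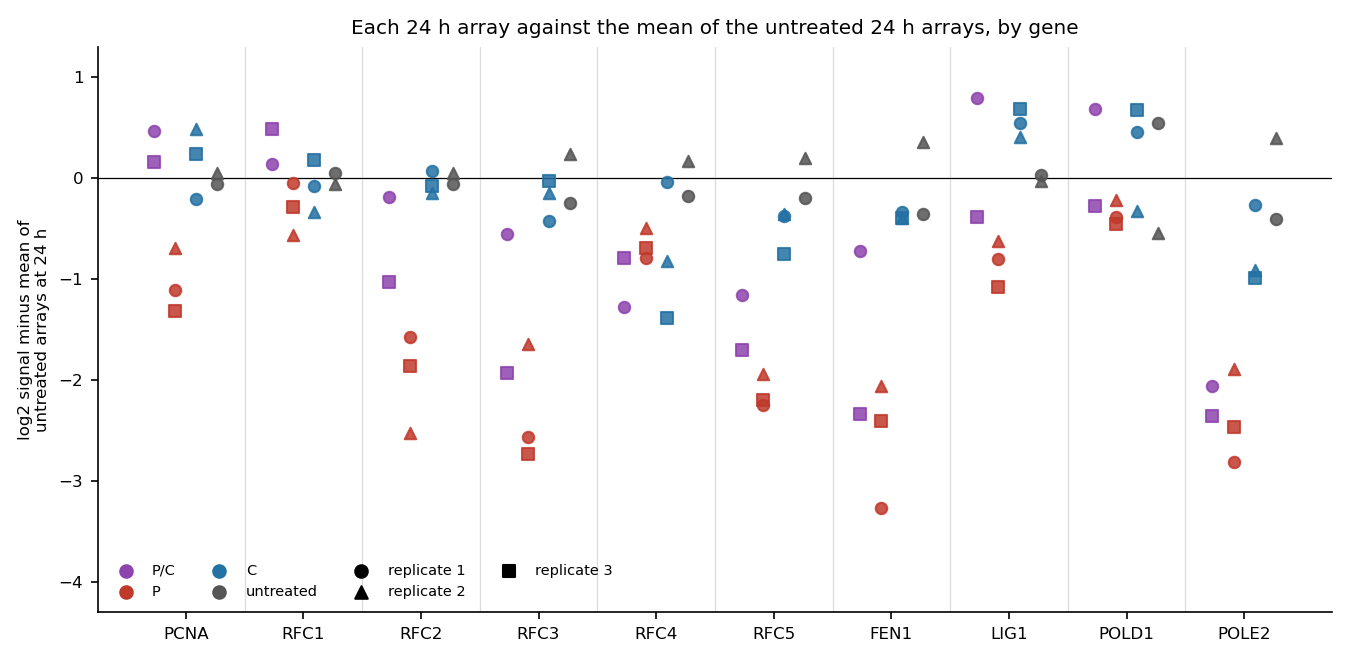
Log2 signal of each 24 h array minus the mean of the 2 untreated arrays, for the probe set standing for each gene. Colours give the treatment and symbols the replicate number. For RFC2, RFC3 and FEN1 both P/C arrays lie below all C arrays. That of replicate 1 (circle) lies less than 1 below the untreated mean and that of replicate 3 (square) more than 1 below it, while for PCNA both lie above 0.

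The effect of P/C was also set against the sum of the single effects, which asks whether the drugs act on a gene independently on the log2 scale. The departure was positive for all 6 tested genes, with a median of 1.23 beside 0.21 over all tested probe sets, and none was called, as was no tested probe set (0%). It was 1.18 for PCNA (SE 0.35, adjusted p = 0.178), 1.43 for RFC2 (SE 0.41, adjusted p = 0.178), 1.19 for RFC5 (SE 0.34, adjusted p = 0.178) and 0.37 for RFC4 (SE 0.43, adjusted p = 0.733). At an unadjusted p under 0.05 there were 5 of the 6 genes, and 426 of all tested probe sets. P/C 24 h replicate 1 lay above replicate 3 for RFC2 (0.85), RFC3 (1.38), RFC5 (0.54), FEN1 (1.61) and PCNA (0.31), and below it for RFC4 (−0.49). For the genes where it lay above, the departure is larger on replicate 1 than on replicate 3.

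P against C is a comparison without the untreated arrays, though it shares the P arrays with the one above. PCNA, RFC2, RFC3, RFC5 and FEN1 were lower with P, beside 7.65% of the tested probe sets. Each of these calls held in all 18 fits without 1 array, that without C 24 h replicate 1 included. Only fits without a P or C array of 24 h can change these fold changes. After quantile normalization the calls over all tested probe sets were 140 higher and 171 lower, against 98 higher and 234 lower on the deposited values. The log2 fold changes were −1.93 for RFC2 (SE 0.26, adjusted p = 0.000339), −2.11 for RFC3 (SE 0.31, adjusted p = 0.000588), −1.63 for RFC5 (SE 0.21, adjusted p = 0.000305) and −2.20 for FEN1 (SE 0.35, adjusted p = 0.000999). Of the other RFC5 probe sets, which did not pass the filter, 203210_s_at gave −1.54 (SE 0.31, adjusted p = 0.0139) and 213734_at 0.22 (SE 0.39, adjusted p = 0.865). Among the genes that did not pass the filter, POLE2 gave −1.67 (SE 0.36, adjusted p = 0.0182), beside 1.71% of all probe sets called lower in that fit. POLE2 lost this call in 3 of the 18 fits, those without P 24 h replicate 1, P 24 h replicate 3 or C 24 h replicate 1.

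At 8 h no member was called with any treatment, beside 0.36% of the tested probe sets called lower with P/C, 0.294% with P and 0% with C. FEN1 had the lowest values against untreated cells. Its arrays had log2 signals of 8.33 and 8.23 with P/C, 8.35 and 7.97 with P, 9.12 and 9.18 with C, and 9.09 and 9.10 in untreated cells. All 4 arrays with piroxicam were below all 4 arrays without it. At 8 h every array was lower than both untreated arrays for 21.9% of the tested probe sets with P/C and for 24.4% with P. The FEN1 values were −0.82 with P/C (SE 0.43, adjusted p = 0.477) and −0.94 with P (SE 0.43, unadjusted p = 0.0423, adjusted p = 0.488). Its second probe set gave −0.79 with P/C and −0.54 with P. Other members came near these sizes, POLE2 at −0.75 with P/C (SE 0.44) and the RFC5 probe set 213734_at at −0.75 with P/C and −0.80 with P (SE 0.47 each). RFC3 had 8.67 and 8.62 with P/C, 8.57 and 8.57 with P, 8.75 and 8.72 with C, and 8.65 and 8.70 in untreated cells, and its 95% interval with P ran from −0.91 to 0.71. PCNA had 9.74 and 10.18 with P/C, 9.80 and 9.83 with P, 10.14 and 10.35 with C, and 9.88 and 10.24 in untreated cells. Untreated cells at 24 h against untreated cells at 8 h gave no called member, beside 0.0981% of the tested probe sets.

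**Figure D4:**
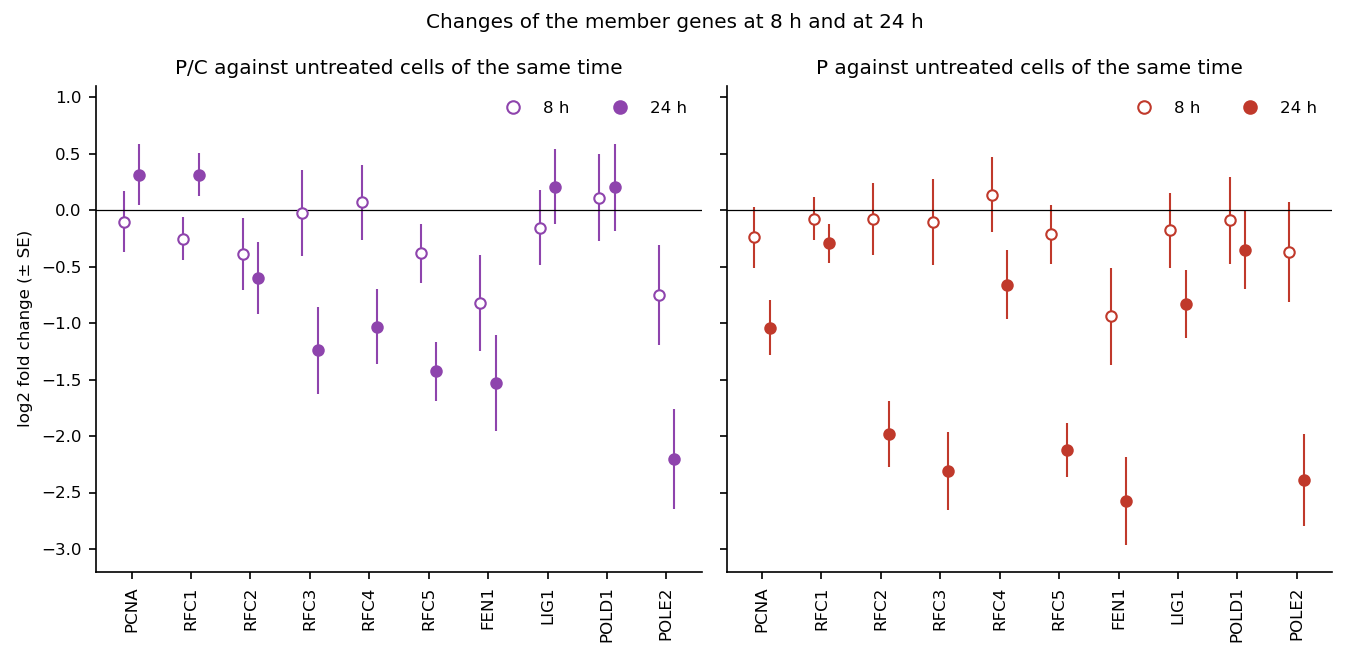
Log2 fold change against untreated cells of the same time for each gene at 8 h (open points) and at 24 h (filled points), with P/C on the left and P on the right and bars of 1 standard error. At 8 h the values of FEN1 with P/C and P, −0.82 and −0.94, are the lowest of the 10 genes.

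The effect of P at 24 h minus its effect at 8 h was called for RFC5 (−1.91, SE 0.35, adjusted p = 0.0478), beside 0.196% of the tested probe sets called lower. Of the 18 fits without 1 array, 14 lost this call, with values of −2.11 to −1.72 and a largest adjusted p of 0.378. For RFC2 the difference was −1.91 (SE 0.43, adjusted p = 0.111), for RFC3 −2.21 (SE 0.52, adjusted p = 0.111), for FEN1 −1.64 (SE 0.58, adjusted p = 0.253) and for PCNA −0.80 (SE 0.37, adjusted p = 0.377). For P/C no such difference was called in a member, beside 0.0654% of the tested probe sets, and the lowest of the tested genes was that of RFC3 (−1.22, SE 0.54, adjusted p = 0.441). POLE2 gave −1.45 (SE 0.63, adjusted p = 0.77) in the fit of all probe sets.

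Over the 8 groups the probe sets standing for RFC2, RFC3, RFC5 and FEN1 had the same lower end, with P at 24 h last and P/C at 24 h next to it. The arrays of these 2 groups overlapped for RFC3 and FEN1 and did not for RFC2 and RFC5. Above them, P/C at 24 h overlapped its next neighbour for RFC2 (P/C at 8 h) and not for RFC3, RFC5 (C at 24 h) or FEN1 (P at 8 h), and the neighbours higher up mostly overlapped. For PCNA the P mean at 24 h, 8.70, was followed by the untreated mean at 24 h, 9.74, and the 7 other groups lay between 9.74 and 10.25. Across the 8 group means, which share arrays and drugs, Pearson r was 0.98 between RFC3 and RFC5, 0.98 between RFC5 and POLE2, 0.97 between RFC5 and FEN1, and 0.93 between PCNA and LIG1. PCNA had 0.21 with RFC4, and RFC1 had −0.57 to 0.59 with the other members.
Among 2110 tested genes the closest patterns to the members were those of POLR2D for PCNA (r = 0.988), MCM4 for RFC2 (0.995), MCM5 for RFC3 (0.993), BUB1 for RFC4 (0.983), PRPS1 for RFC5 (0.995) and SRSF7 for FEN1 (0.998). MCM4 and MCM5 are subunits of the replicative helicase, BUB1 is a kinase of the spindle checkpoint, PRPS1 makes the sugar phosphate used for nucleotides, POLR2D is a subunit of RNA polymerase II and SRSF7 is a splicing factor. GINS1, another helicase subunit, followed for FEN1 with 0.994. These are descriptions over 8 points.

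Of 57 other genes of replication or of proteins that bind PCNA on the array, in 6 lists, 28 were tested. With P/C 4 of them were lower and 1, CDKN1A of the PCNA-binding list, was higher. With P 15 were lower (53.6%) and none higher, and with C none was called. Over all tested probe sets 4.22% were lower with P/C and 11.4% with P. The median log2 fold change of the 28 genes was −0.56 with P/C, −1.07 with P and −0.16 with C, beside −0.12, −0.22 and −0.10 over all tested probe sets. Most of the falls with P lay among the 14 tested genes of helicase and origin licensing, 10 of which were lower. The helicase subunit GINS1 had log2 signals of 3.92, 4.74 and 4.15 with P and 7.79 and 7.93 in untreated cells (−3.59, SE 0.44, adjusted p = 0.000127), and the licensing factor CDC6 had 3.25, 3.15 and 3.01 with P and 5.78 and 6.68 in untreated cells (−3.09, SE 0.53, adjusted p = 0.00108). GMNN, the inhibitor of licensing, gave −2.40 (SE 0.32, adjusted p = 0.000238). With P/C 3 genes of this list were lower. GINS2 gave −2.93 (SE 0.44, adjusted p = 0.00314), beside −2.89 with P (SE 0.40, adjusted p = 0.000373). GINS1 gave −1.81 (SE 0.48, adjusted p = 0.0311), and DBF4, the activator of the kinase CDC7, −1.12 (SE 0.31, adjusted p = 0.0367). The GINS1 signals with P/C lay apart, at 7.12 on replicate 1 and 4.99 on replicate 3, beside 7.14, 7.18 and 7.45 with C.
Of 5 tested genes of other proteins that bind PCNA, 4 were lower with P, beside 11.4% of all tested probe sets. These were DTL, which brings a ubiquitin ligase to PCNA on DNA (−2.30, SE 0.55, adjusted p = 0.00667), the uracil glycosylase UNG (−1.60, SE 0.33, adjusted p = 0.00276), the mismatch repair protein MSH6 (−1.20, SE 0.22, adjusted p = 0.00141) and the methyltransferase DNMT1 (−1.08, SE 0.22, adjusted p = 0.00277). With P/C, UNG was lower (−1.33, SE 0.36, adjusted p = 0.0326) and CDKN1A higher (2.57, SE 0.57, adjusted p = 0.0172). CDKN1A had log2 signals of 11.30 and 10.76 with P/C, 9.82, 9.62 and 9.55 with P, 8.66, 10.71 and 11.46 with C, and 8.72 and 8.20 in untreated cells. DTL had 8.41 and 6.09 on the P/C arrays of replicates 1 and 3, with replicate 1 the higher, as for FEN1.
Of the 4 tested genes of other polymerase and primase subunits, POLE3, a small subunit of polymerase epsilon, was lower with P (−1.06, SE 0.24, adjusted p = 0.00467). None of the 2 tested RPA genes, of the 2 tested genes of other clamps and loaders and of the 1 tested lagging-strand nuclease was called against untreated cells. RAD17, the loader of the checkpoint clamp, ran the other way in P against C, at 7.78, 7.50 and 7.16 with P and 6.46, 5.84 and 6.26 with C (1.29, SE 0.41, adjusted p = 0.0314).

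**Figure D5:**
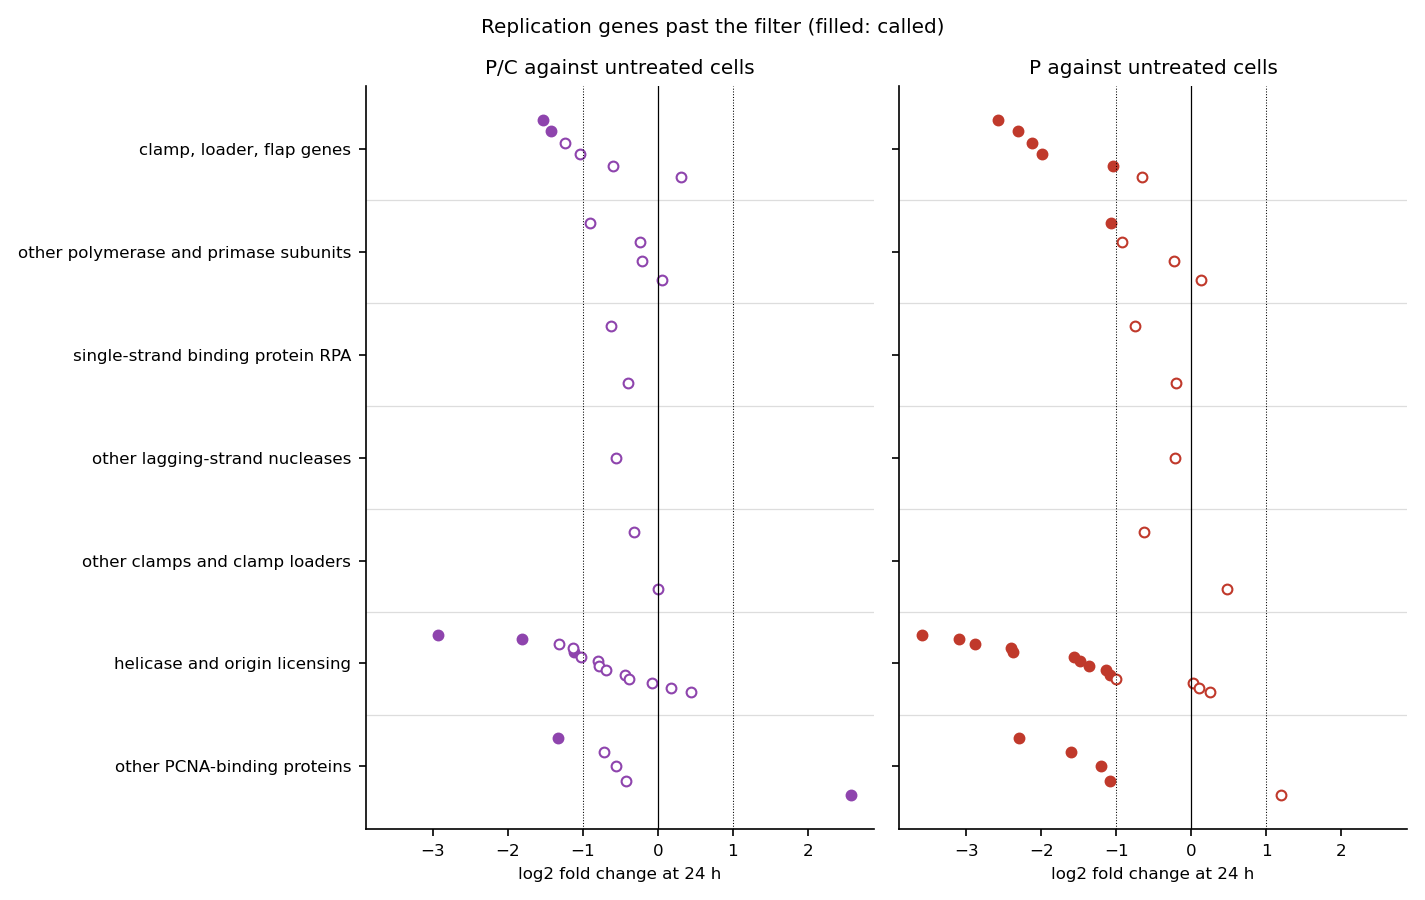
Log2 fold change against untreated cells at 24 h of the tested genes of each list, with P/C on the left and P on the right. Each point is 1 gene, filled points were called, and dotted lines mark a log2 fold change of 1 in either direction. With P the tested clamp, loader and flap genes run from −2.58 to −0.66, and with P/C from −1.53 to 0.31.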

How the data were processed

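RNA of 18 cultures was measured on HGU133A arrays. The authors removed arrays whose raw intensities stood out in a probe-level model, ran GCRMA, which corrects background and normalizes between arrays, and deposited log2 values, 1 for each probe set and array. Its version was not given in the sources used here. No counts stand behind these values, so the number of arrays limits the precision. GCRMA sets probe sets without signal to a common low level, so fold changes of dim members (LIG1, POLE2) depend on its background model, which could not be varied on these values.

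Groups and replicate numbers came from the labels. Gene names came from the platform annotation, with 1 symbol for 19071 probe sets, several for 1043 and none for 2169. After the filter of the study's methods (interquartile range of 0.25 or more, and a signal of 100 or more on 25% of the arrays or more) and removal of 68 control probe sets, 3057 probe sets were tested with limma 3.58.1 in R 4.3.3, with 1 mean for each of 8 groups, 10 residual and 5.76 prior degrees of freedom, 13 comparisons, two-sided tests and Benjamini-Hochberg adjustment within a comparison. SE is the standard error of this fit. The filter was rebuilt here and kept fewer probe sets than the paper reports for its own, so the tested sets differ. The fit was also run on simulated data with independent noise and known labels. That run cannot speak to the arrays that stood apart. The alternatives were quantile normalization, median centring, other filters, array weights, fits of fewer arrays, a replicate block and another probe set for a gene.

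The text names all 10 members, up to 4 called genes of each other list, and the closest patterns to the tested members over the group means. The members and the lists were chosen with earlier results of these data known.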

Additional observations from a re-analysis of the deposited data

Results flagged for a closer look

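Among the member genes, 2 results stood out between the times, 1 of them called. The effect of P on RFC5 (203209_at) was lower at 24 h than at 8 h by a test of the difference itself (−1.91 on the log2 scale, SE 0.35, adjusted p = 0.0478 in limma). This call was close to the threshold, beside 0.196% of the tested probe sets called lower. It was lost in 14 of the 18 fits without 1 array and in the fit without the filter (adjusted p = 0.215). The probe sets 203210_s_at and 213734_at gave −2.23 and −0.06, neither called. RFC5 had log2 signals of 6.24, 6.54 and 6.28 with P and 8.28 and 8.68 in untreated cells at 24 h, and 8.38 and 8.29 with P and 8.39 and 8.70 in untreated cells at 8 h. For RFC1 (209085_x_at) both P/C arrays lay above both untreated arrays at 24 h (0.31 on the log2 scale) and below both at 8 h (−0.25). This pattern was picked for its opposite directions. Of all probe sets, 20.9% had both P/C arrays above both untreated arrays at 24 h, and 17.1% had both below at 8 h. The RFC1 difference between the times was 0.57 (SE 0.27, adjusted p = 0.794 in the fit of all probe sets), and the other RFC1 probe sets gave 0.49 and 0.21, none of them called.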

How the results depend on the processing

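Of 25 called fold changes of member probe sets, each set against up to 27 other settings, 582 of 650 values kept their call, 68 kept the direction but lost the call and none turned. These values were chosen for being called. A fit without an array outside the comparison keeps the fold change and alters only its spread, so such fits could not turn a value. With P at 24 h the count of 5 genes was 4 to 5 without 1 array, and with P against C it was 5 in each such fit. With P/C at 24 h the count of 2 became 1 after quantile normalization, 1 with array weights, 1 with the replicate block, 4 at a signal of at least 200 and 0 with only the arrays of the comparison, and ran from 0 (without untreated 24 h replicate 2 or P/C 24 h replicate 3) to 4 (without C 24 h replicate 1). For P/C against P the count of 1 became 0 after quantile normalization, without the filter, with array weights and with only the arrays of the comparison, 2 at a signal of at least 200 and 2 with the replicate block, and ran from 0 to 4 without 1 array. For P/C against C it ran from 0 to 3 without 1 array, for the departure from the sum of the single effects from 0 to 4, and with C at 24 h from 0 to 1, where it was also 1 with array weights. For the effect of P at 24 h minus that at 8 h the count of 1 became 0 after quantile normalization, without the filter, with the signal filter alone and with the replicate block, 3 with array weights and 3 with only the arrays of the comparison, and ran from 0 to 3 without 1 array. With replicate 1 of both P/C and C at 24 h left out, a setting added after looking at the arrays, the counts were 1 with C, 0 for P/C against P, 3 for P/C against C and 3 for the effect of P at 24 h minus that at 8 h. Over all tested probe sets the 445 calls with P were 783 without the filter, 282 at a signal of at least 200 and 250 without untreated 24 h replicate 2. The 332 calls of P against C were 617 with no filter and 190 under the signal limit of 200. With C there were 123 calls without C 24 h replicate 1 and 134 with array weights, against 0. The 210 calls with P/C were 62 with array weights, 134 with the replicate block, 31 with only the arrays of the comparison, 6 without untreated 24 h replicate 2, 52 without P/C 24 h replicate 3 and 346 when its replicate 1 was left out. The cause of these changes was not tested, apart from the smaller number of arrays or probe sets in the fit.

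Replicate numbers were shared by the groups. The deviations of same-numbered arrays from their group means had correlations of 0.20 to 0.66 at 8 h and −0.22 to 0.39 at 24 h, and the numbers were not used as pairs in the main results. With the replicate block the PCNA value with P was −0.96 (adjusted p = 0.00649), short of the fold limit, and FEN1 with P/C was −1.23 (adjusted p = 0.118). At 8 h all 12 such correlations were above 0, but only 2 numbers stand behind them and no source says what a number marks. A block for the 8 h arrays alone gave 92 calls with P/C and 72 with P over the 3057 tested probe sets, against 19 and 15 without it, and no call for a member. Signals under 100, as for LIG1, POLE2 and most arrays of POLD1, limit what could be measured in these genes.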
